A study of Homo sapiens with 8 samples.

Results

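Transcripts of 6 genes that many tissues express before birth and tumours can express again were followed in H460 cells, a line from a human large-cell lung carcinoma. The genes are IGF2BP1, IGF2BP2 and IGF2BP3, which encode RNA-binding proteins, HMGA1 and HMGA2, which encode small chromatin proteins, and LIN28B, which encodes an inhibitor of the let-7 microRNAs. The members were found as all probe sets whose annotated symbol is one of these names, which gave 21 of 54613 probe sets, and 6 of 19775 named genes. IGF2BP1 and HMGA2 were chosen by their measured log2 difference between resistant and sensitive cells on these same arrays, so their values are given as a description with no test. The other 4 genes were included as relatives, with earlier results of these data known, to ask whether they follow. The comparison was between 2 groups of 4 arrays. The resistant group, H460R, was exposed to TRAIL every day for 6 months until resistance was acquired, and the sensitive group, H460S, is labelled as control. TRAIL is a death ligand of the tumour necrosis factor family. Both groups come from 1 cell line grown in RPMI medium with serum. The labels do not say whether the resistant cells are a clone or a pool, or whether separate cultures stand behind a group's arrays. The p-values therefore reflect only array-to-array spread, possibly technical in origin. Resistance cannot be told apart from long exposure to the ligand or from time in culture.

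The let-7 microRNAs bind sites in the untranslated 3′ ends of target mRNAs and lower their translation and stability. HMGA2, the IGF2BP genes and LIN28B are textbook let-7 targets, and LIN28B in turn blocks the maturation of let-7 precursors, so that LIN28B and let-7 oppose each other. IGF2BP proteins bind mRNAs and protect them from decay, and HMGA proteins bind AT-rich DNA and alter chromatin. In the lung, let-7 rises as the organ matures while LIN28B and HMGA2 decline, and several of the members are found again in lung carcinomas.

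The let-7 family is shown because it is the known link between the members. RefSeq (GRCh38.p14) lists 9 mature 5p sequences from 12 genomic copies, and all 9 carry the same seed, bases 2 to 8, printed in capitals from 5′ to 3′. Positions are those of the first listed copy. For the copies shown, let-7a-5p lies at chr9:94175962-94175983 (plus strand), let-7g-5p at chr3:52268336-52268357 (minus strand) and miR-98-5p at chrX:53556299-53556320 (minus strand).
let-7a-5p: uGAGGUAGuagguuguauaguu
let-7b-5p: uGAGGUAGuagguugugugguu
let-7c-5p: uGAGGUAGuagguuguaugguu
let-7d-5p: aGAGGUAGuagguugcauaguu
let-7e-5p: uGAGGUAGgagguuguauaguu
let-7f-5p: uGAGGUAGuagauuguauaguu
let-7g-5p: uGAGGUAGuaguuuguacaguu
let-7i-5p: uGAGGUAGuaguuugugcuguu
miR-98-5p: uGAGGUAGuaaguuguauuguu
A target site therefore pairs with the same 7 bases whichever family member binds it. The microRNAs themselves were not analysed here.

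Each array gives a linear signal per probe set, scaled by the depositors to a common mean, and changes are given as H460R minus H460S as log2(signal + 1), a scale on which changes of dim genes come out too small. Median signals lay between 32.6 and 34.5 in H460R arrays and between 33.4 and 37.5 in H460S arrays. Ranked by mean level, the middle probe set lay at a log2 level of 5.01, and a probe set under this median level is called dim below. The median standard deviation within groups was 0.85 for dim probe sets and 0.18 for the others. The values came without detection calls, so a dim signal cannot be told from background. Among epithelial markers, the keratin genes KRT8 and KRT18 were bright in both groups, while EPCAM and CDH1, the genes of epithelial adhesion proteins, were dim, so 3 of the 5 epithelial markers were at or above the median level. KRT19, another keratin gene, fell by 1.24 ± 0.11 (adjusted p = 0.000389, limma), and the summed signal of the 5 markers was 13312 to 16023 in H460R and 16942 to 19731 in H460S arrays. NKX2-1, a lung lineage factor, was dim as well, at a mean log2 level of 3.32 ± 0.78 in H460R and 4.71 ± 0.88 in H460S arrays (SD, n = 4 each). Of the 4 lung epithelium markers measured, NKX2-1 included, 2 were at or above the median level. The summed signal of these 4 was 134 to 224 in H460R and 180 to 317 in H460S arrays. None passed, though 2 were lower in H460R at an unadjusted p of 0.05 (limma), and their median change was -0.41. The 2 measured leukocyte markers were dim. Their summed signal lay between 13.4 and 29.8 in H460R and between 22.5 and 31.9 in H460S arrays. Of 4 fibroblast markers, 2 were at or above the median level. The summed signal of all 4 was 1120 to 1265 in H460R and 1202 to 1338 in H460S arrays. Of 3 endothelial markers, 1 was at or above that level. The summed signal of all 3 was 50.7 to 91.5 in H460R and 80.2 to 87.0 in H460S arrays. The 3′ minus 5′ difference of the ACTB control probe sets, which moves with RNA quality and labelling, was 0.10 to 0.13 in H460R and 0.23 in all H460S arrays, while that of GAPDH overlapped between groups, at -0.22 to -0.06 in H460R and -0.15 to -0.13 in H460S. The part of these marker and control differences in the results below was not tested. These are bulk samples, in which more expressing cells and more RNA per cell cannot be told apart.

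IGF2BP1 was near the low end of the scale in sensitive cells and clearly measured in resistant ones. Its protein, also known as IMP1, binds and stabilises mRNAs such as that of MYC. Probe set 227377_at had signals of 190.3, 205, 199 and 192 in the H460R arrays, against 8.91, 4.83, 26.1 and 4.14 in the H460S arrays. The groups did not overlap, and the resistant arrays lay within a narrow band while the sensitive ones scattered among dim values. The mean log2 level was 7.62 ± 0.05 in H460R and 3.24 ± 1.09 in H460S (SD, n = 4 each), a difference of 4.38 ± 0.50 (SE), and 14 of 19775 genes had a larger one. A second probe set, 223689_at, gave 138, 111, 133 and 129 in H460R, against 5.01, 6.76, 13.5 and 4.59 in H460S. Its difference was 4.04 ± 0.30, close to that of the first. Averaged over all 8 arrays, this probe set lay under the median level and so counts as dim. The third, 241574_s_at, was dim on all 8 arrays, with signals of 2.07 to 10.8 in H460R and 0.951 to 4.41 in H460S, and its groups overlapped. With a pseudocount of 16 in place of 1 the difference for 227377_at was 3.04.

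HMGA2 encodes an architectural chromatin protein with AT-hooks that is abundant in embryos and scarce in most adult tissues. Its brightest probe set, 208025_s_at, had signals of 139.6, 129, 143 and 115 in H460R, against 32.0, 19.2, 19.4 and 18.2 in H460S. All resistant arrays lay above all sensitive ones, and sensitive array 1 stood above the other 3 of its group. The mean log2 level was 7.05 ± 0.14 in H460R and 4.499 ± 0.37 in H460S, a difference of 2.55 ± 0.19 (SE), and 85 genes had a larger one. The other 8 HMGA2 probe sets were dim, with differences of -0.49 to 2.13, of which 7 were positive. Only for 1 of these 8, 1558682_at, did the groups not overlap: it gave 18.8, 19.6, 22.6 and 21.7 in H460R and 6.96, 1.45, 5.95 and 3.45 in H460S. With the mean over all 9 probe sets the HMGA2 difference was 0.87.

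**Figure D1:**
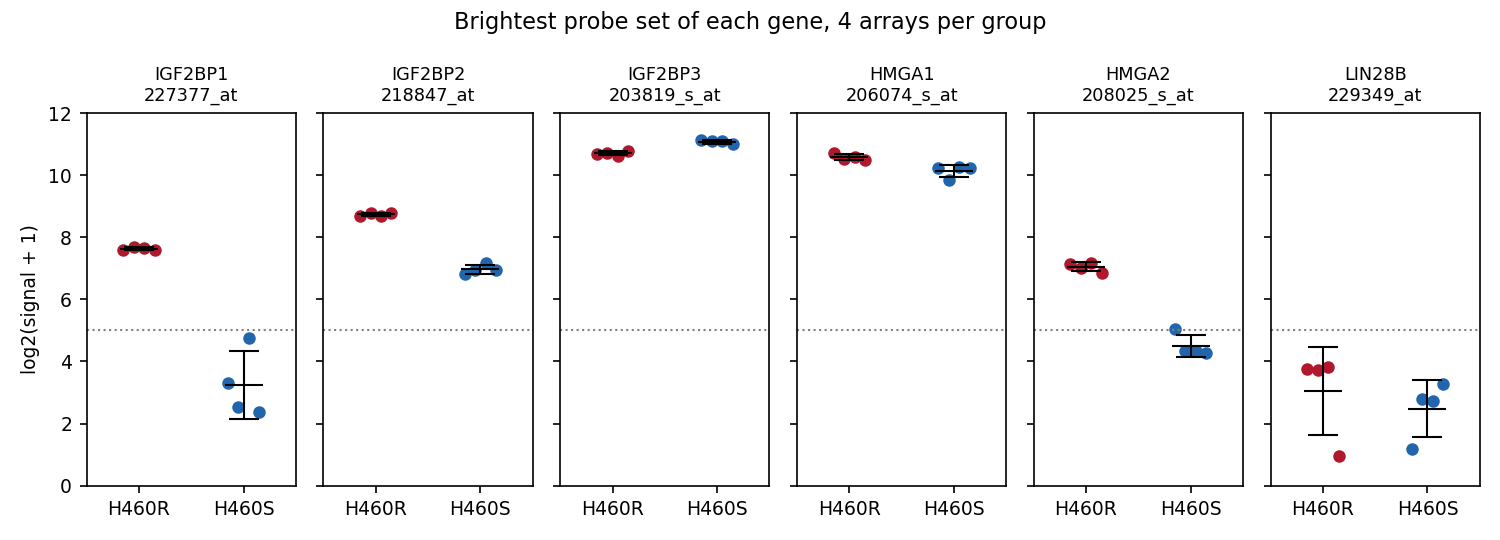
log2(signal + 1) of the brightest probe set of each gene on every array, with H460R (red) left of H460S (blue), the mean and SD of 4 arrays in black and the median probe set (5.01) as a dotted line. IGF2BP1, IGF2BP2 and HMGA2 lie higher in H460R, IGF2BP3 slightly lower, and all 8 LIN28B values lie under the dotted line.

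The 4 relatives went in different directions. Of their 9 probe sets, 2 passed an adjusted p of 0.05 as higher in H460R, 3 passed as lower and 4 did not pass (limma with Benjamini-Hochberg adjustment over all probe sets). The 2 that passed as higher were 1 each of IGF2BP2 and HMGA1, and all 3 that passed as lower were of IGF2BP3. Over all 54613 probe sets, 9.13% passed as higher and 10.4% as lower, 19.5% in all. The groups did not overlap for 5 of the 9, against 26.4% of all probe sets and 46.0% of those at or above the median level. Of the probe sets at or above the median level, 34.2% passed in either direction (16.4% as higher and 17.8% as lower), so a pass alone is common among well-measured probe sets here.

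IGF2BP2 rose. It encodes IMP2, the family member that stays expressed in many adult tissues and takes part in metabolism. Probe set 218847_at gave 410.0, 439, 413 and 441 in H460R, against 112, 123, 142 and 121 in H460S. The groups were far apart, and every sensitive array was well above the dim range, with a smaller standard error than that of IGF2BP1. The mean log2 level was 8.74 ± 0.06 in H460R and 6.97 ± 0.14 in H460S, a change of 1.77 ± 0.10 (SE, 3.41-fold, adjusted p = 7.7e-05, limma), with a 95% interval of 1.53 to 2.01. Of all 19775 genes, 217 had a larger change. The other probe set, 223963_s_at, was dim and overlapped, with 19.03 to 44.9 in H460R and 1.69 to 35.7 in H460S, and its change of 1.25 ± 0.77 did not pass (adjusted p = 0.326, limma).

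IGF2BP3 was lower in resistant cells. It encodes IMP3, the family member most used as a tumour marker in pathology. Probe set 203819_s_at gave 1656, 1690, 1583 and 1741 in H460R, against 2217, 2179, 2189 and 2031 in H460S. It was bright in both groups, and no resistant array reached a sensitive one. The mean log2 level was 10.70 ± 0.06 in H460R and 11.07 ± 0.06 in H460S, a change of -0.37 ± 0.09 (SE, adjusted p = 0.022, limma). Probe set 203820_s_at gave 1182, 1175, 1241 and 1080 in H460R, against 1627, 1665, 1556 and 1636 in H460S, a change of -0.47 ± 0.09 (adjusted p = 0.00913, limma). Probe set 216493_s_at gave 277, 231, 307 and 344 in H460R, against 507, 481, 479 and 418 in H460S, a change of -0.71 ± 0.145 (adjusted p = 0.0132, limma). The 3 probe sets thus fell together, with no overlap between groups in any of them. They carry the suffix that the array's maker gives to probes that can match several transcripts, and whether they read 1 transcript was not tested. The fourth, 1569033_at, lay near the median level and did not pass, with 42.0 to 59.1 in H460R and 19.9 to 47.6 in H460S and a change of 0.50 ± 0.28 (adjusted p = 0.285, limma). None of the 3 falls passed with the replicate number as a block (adjusted p = 0.120 for 203819_s_at, 0.0771 for 203820_s_at and 0.0801 for 216493_s_at, limma). The fall of 203819_s_at was also lost after median centring (-0.30, adjusted p = 0.0573, limma) and when leaving out any of 5 arrays (H460R array 1, 2 or 3, or H460S array 2 or 3), with changes of -0.40 to -0.34 over all 8 omissions and adjusted p up to 0.0685. The other falling probe sets passed in all 8 omissions.

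The 250 bases before the first listed start of IGF2BP2 and of IGF2BP3 are printed because these paralogues changed in opposite directions. IGF2BP2 lies on the minus strand, at chr3:185825043-185825292 (GRCh38.p14, RefSeq), and capitals mark the GC box GGGCGG on either strand, overlapping matches included.
IGF2BP2: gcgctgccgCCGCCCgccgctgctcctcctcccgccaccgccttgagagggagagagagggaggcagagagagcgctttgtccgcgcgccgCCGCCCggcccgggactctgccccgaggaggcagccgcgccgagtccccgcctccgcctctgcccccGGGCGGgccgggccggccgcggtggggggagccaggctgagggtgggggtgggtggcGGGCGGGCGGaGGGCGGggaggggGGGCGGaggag
IGF2BP3 also lies on the minus strand, at chr7:23470492-23470741, and capitals mark the E-box CACGTG, which reads the same on both strands.
IGF2BP3: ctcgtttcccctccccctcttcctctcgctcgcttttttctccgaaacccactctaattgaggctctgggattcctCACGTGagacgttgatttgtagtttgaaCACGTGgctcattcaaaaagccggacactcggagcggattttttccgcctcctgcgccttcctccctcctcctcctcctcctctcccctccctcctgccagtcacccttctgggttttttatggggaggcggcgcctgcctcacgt
The IGF2BP2 window had 7 GC box matches and no E-box, and the IGF2BP3 window 2 E-boxes and no GC box. Of 35116 windows of this length, 42.6% held a GC box and 6.34% the E-box. Guanine and cytosine made up 81.6% of the IGF2BP2 window and 56.8% of the IGF2BP3 window. The TATA box TATAAA matched neither window on either strand and was found in 10.7% of all windows. The same held for the CCAAT box, spelled as named and found in 32.0%, and for the AP-1 site TGANTCA, found in 6.57%. These matches describe the letters and say nothing about which factor binds.

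HMGA1 differed little between the groups. Its protein is the close relative of HMGA2 and is abundant in dividing cells. Probe set 206074_s_at gave 1674, 1462, 1538 and 1436 in H460R, against 1195, 927, 1226 and 1190 in H460S. The groups did not overlap, and sensitive array 2 stood below the others of its group. The mean log2 level was 10.58 ± 0.10 in H460R and 10.14 ± 0.19 in H460S, a change of 0.44 ± 0.12 (SE, 1.35-fold, adjusted p = 0.0472, limma), only just inside the threshold. It no longer passed when any of the 8 arrays was left out (changes of 0.34 to 0.48, adjusted p up to 0.121), after quantile normalization (0.40, adjusted p = 0.0595) or with the replicate number as a block (adjusted p = 0.110). The second probe set, 210457_x_at, gave 187, 230, 167 and 275 in H460R, against 181, 165, 170 and 178 in H460S. These groups overlapped, and the change of 0.28 ± 0.16 did not pass (adjusted p = 0.301, limma). As for IGF2BP3, the suffixes of 206074_s_at, 210457_x_at and HMGA2 208025_s_at mark probes that can match several transcripts.

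LIN28B was not measurably changed, and its only probe set was dim throughout. Probe set 229349_at gave 12.5, 12.3, 13.1 and 0.920 in H460R, against 1.24, 5.85, 5.56 and 8.61 in H460S. The groups overlapped, since resistant array 4 had the lowest signal of all 8. The mean log2 level was 3.06 ± 1.41 in H460R and 2.48 ± 0.91 in H460S, and the change of 0.58 ± 0.76 (SE) did not pass (adjusted p = 0.675, limma). Its 95% interval of -1.21 to 2.37 covers both a fall and a rise as large as that of IGF2BP2, so these arrays do not show whether LIN28B follows. Without resistant array 4 the change was 1.29, and it still did not pass (adjusted p = 0.131, limma). LIN28A, the paralogue, was dim too, and changed by 0.14 ± 0.56 (adjusted p = 0.906, limma).

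**Figure D2:**
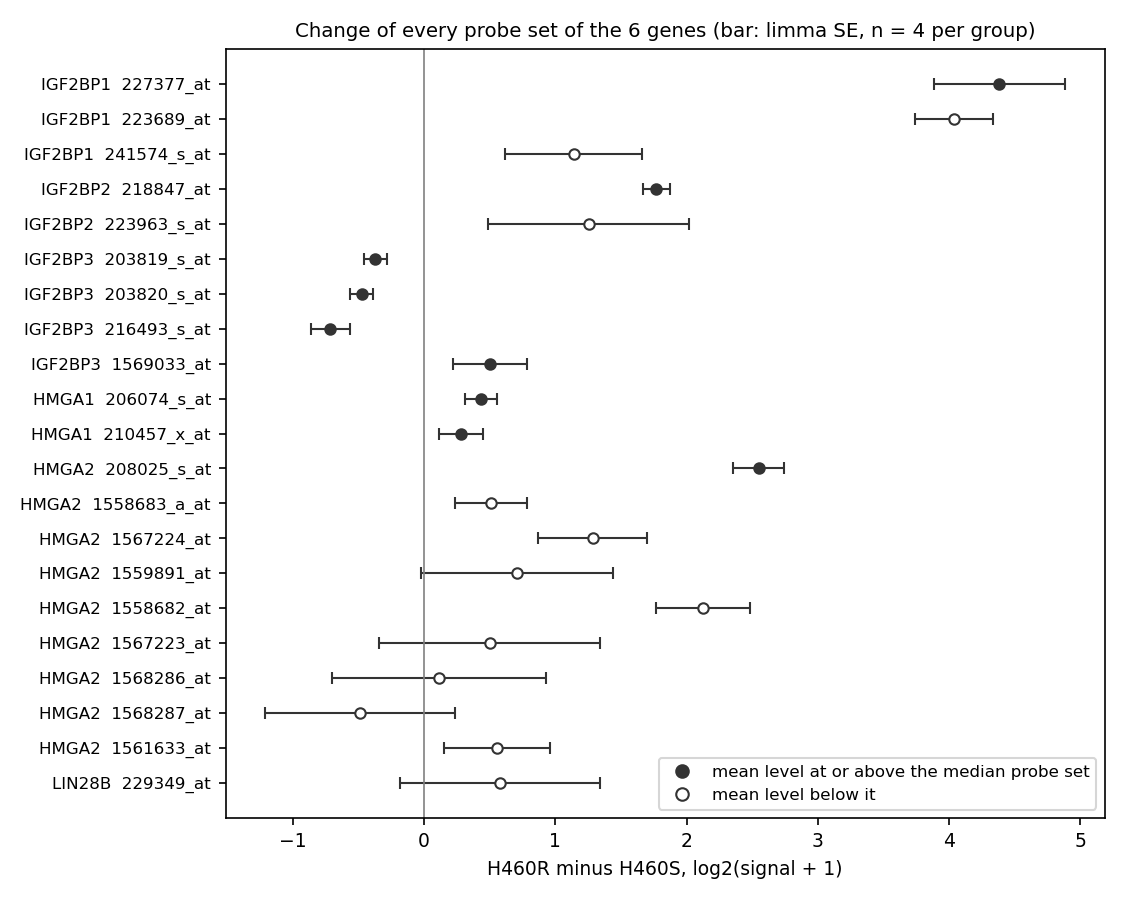
H460R minus H460S on the log2(signal + 1) scale for all 21 probe sets, with the limma SE as bars (n = 4 arrays per group); filled circles are at or above the median level and open circles below it. Changes run from 4.38 ± 0.50 for IGF2BP1 227377_at down to -0.71 ± 0.145 for IGF2BP3 216493_s_at, and the dim LIN28B probe set has one of the longer bars (0.58 ± 0.76).

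Other let-7 targets rose more often than they fell. This list and those that follow were chosen with earlier results of these data known. The genes of this and the following lists were each read by the brightest probe set, and over all 19775 genes 12.1% passed as higher and 12.8% as lower (24.9% in all, with groups not overlapping for 33.9%), with a median change of -0.03. Of 31 measured let-7 targets outside the 6 members, 13 rose and 2 fell, while 16 did not pass, and the median change was 0.40. Of these 31 genes, 27 were at or above the median level, the level at which 16.4% of probe sets passed as higher. CDC25A, the phosphatase that activates cyclin-dependent kinases, gave 396, 369, 399 and 356 in H460R, against 119, 109, 115 and 107 in H460S, a change of 1.75 ± 0.09 (adjusted p = 4.82e-05, limma). CCND1, which encodes cyclin D1, rose by 1.72 ± 0.11 and THBS1, which encodes the matrix protein thrombospondin, by 1.37 ± 0.21 (adjusted p = 0.000133 and 0.00394, limma). BACH1, a repressor of antioxidant genes, fell by 1.57 ± 0.13, with 320.5, 294, 296 and 258 in H460R, against 938, 809, 996 and 756 in H460S (adjusted p = 0.000279, limma). AURKB and RRM2, a mitotic kinase gene and a nucleotide synthesis gene named after their values were seen, rose by 0.89 ± 0.14 and 0.40 ± 0.09 (adjusted p = 0.00494 and 0.0214, limma). MYC, the best known mRNA bound by IGF2BP1 and itself a let-7 target, had a change of 0.17 ± 0.12 (adjusted p = 0.424, limma) and so stayed outside the threshold. MYC, LIN28A and the let-7 host genes are also named outside the naming rule, after their values were seen. With the replicate number as a block, 5 of the let-7 targets rose and 1 fell. Without H460R array 1 or 2 or H460S array 1, 2 or 3, 1 fell in place of 2. Over all 8 omissions of an array, 10 to 12 rose in place of 13.

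Genes that make and destroy let-7 moved both ways. Of 21 measured, 5 rose and 7 fell, while 9 did not pass, at a median change of -0.06. Without H460R array 3, 4 fell in place of 7. DICER1, which encodes the enzyme that cuts precursors, rose by 0.70 ± 0.13 (adjusted p = 0.00904, limma). TARBP2, which encodes a partner protein of that enzyme, rose by 0.85 ± 0.12 (adjusted p = 0.00289, limma). AGO4, one of the Argonaute genes, fell by 1.18 ± 0.12, with 145, 157, 183 and 149 in H460R, against 360, 378, 379 and 318 in H460S (adjusted p = 0.000636, limma). HNRNPA1, whose protein binds let-7 precursors, fell by 0.72 ± 0.11 (adjusted p = 0.00456, limma), on a probe set whose suffix marks probes shared with other transcripts. TUT4 and TUT7, the uridylyl transferases that mark let-7 precursors, had changes of -0.51 ± 0.11 and -0.45 ± 0.08 (adjusted p = 0.0157 and 0.00892, limma), and are named after their values were seen. None of the 4 host genes of let-7 copies passed in limma, though MIR100HG and HUWE1 had unadjusted p of 0.0121 and 0.0278: MIRLET7BHG changed by 0.31 ± 0.14, MIR100HG by 0.79 ± 0.24, MIR99AHG by 0.17 ± 0.21 and HUWE1 by -0.60 ± 0.22 (adjusted p = 0.190, 0.0586, 0.642 and 0.106, limma). The HUWE1 probe set also carries the suffix for probes shared with other transcripts. A host transcript does not show how much mature microRNA there is. When each gene was read by the average over its probe sets, 3 of this list rose and 3 fell.

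Transcripts known to be bound by IGF2BP proteins were mixed. Of 11 measured, 3 rose and 1 fell, while 7 did not pass, at a median change of -0.09. CD44, the hyaluronan receptor, gave 3164, 3004, 2958 and 2796 in H460R, against 1144, 1199, 1225 and 1065 in H460S, a change of 1.36 ± 0.09 (adjusted p = 0.000146, limma). SRF, a transcription factor of the actin programme, rose by 0.60 ± 0.11 and CTNNB1, which encodes beta-catenin, by 0.47 ± 0.10 (adjusted p = 0.00967 and 0.0147, limma). FN1, which encodes fibronectin, fell by 1.13 ± 0.10 (adjusted p = 0.000497, limma), on a probe set whose suffix marks probes shared with other transcripts. IGF2 and H19 were not analysed here. Of 18 RNA-binding partners and genes of the methyladenosine mark that IGF2BP proteins read, 5 rose and 1 fell, while 12 did not pass, at a median change of 0.11. The helicase gene DHX9 rose by 1.34 ± 0.09, SYNCRIP by 0.73 ± 0.10 and ELAVL1, whose protein HuR also stabilises mRNAs, by 0.70 ± 0.09, while STAU2, which serves RNA transport, fell by 0.77 ± 0.13 (adjusted p = 0.000118, 0.0027, 0.0015 and 0.00595, limma).

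Of 18 genes of HMGA-linked transcription, other HMG proteins and the mesenchymal state, 6 rose, none fell at an adjusted p of 0.05 in limma (1 was lower at an unadjusted p of 0.05) and 12 did not pass, at a median change of 0.19. CDH2, which encodes N-cadherin, gave 70.9, 57.7, 63.7 and 50.5 in H460R, against 8.64, 16.1, 11.4 and 3.40 in H460S, a change of 2.65 ± 0.40 from a dim sensitive level (adjusted p = 0.00354, limma). SNAI1, a repressor of epithelial genes that HMGA2 can induce, rose by 1.07 ± 0.21 and HMGB3, another chromatin protein gene, by 0.58 ± 0.10 (adjusted p = 0.0113 and 0.0066, limma). E2F1, a cell cycle transcription factor, changed by 0.62 ± 0.17 (adjusted p = 0.0404, limma) and did not pass in 6 of the 8 omissions of an array. Among the other mesenchymal factors of the list, named after their values were seen, ZEB1 rose by 0.39 ± 0.09 (adjusted p = 0.0233, limma). ZEB2 did not pass, with a change of -0.84 ± 0.27 and groups that did not overlap (adjusted p = 0.0684, limma). SNAI2, TWIST1 and VIM did not pass either, with changes of 0.09 ± 0.11, -0.14 ± 0.67 and -0.26 ± 0.16 (adjusted p = 0.637, 0.925 and 0.323, limma).

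Of 14 other oncofetal genes measured, 2 rose, none fell at an adjusted p of 0.05 in limma (1 was lower at an unadjusted p of 0.05) and 12 did not pass, at a median change of 0.19. Of the 14, 5 were at or above the median level. TPBG, which encodes the trophoblast antigen 5T4, gave 1281, 1113, 1267 and 1303 in H460R, against 202, 189, 172 and 162 in H460S. The groups were far apart, and the change was 2.77 ± 0.11 (adjusted p = 2.04e-05, limma). SOX4, a developmental transcription factor, rose by 0.72 ± 0.10 (adjusted p = 0.00225, limma). Without H460R array 4, 1 gene of this list fell. AFP, GPC3 and DLK1, genes of fetal antigens, were dim in both groups and did not pass.

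**Figure D3:**
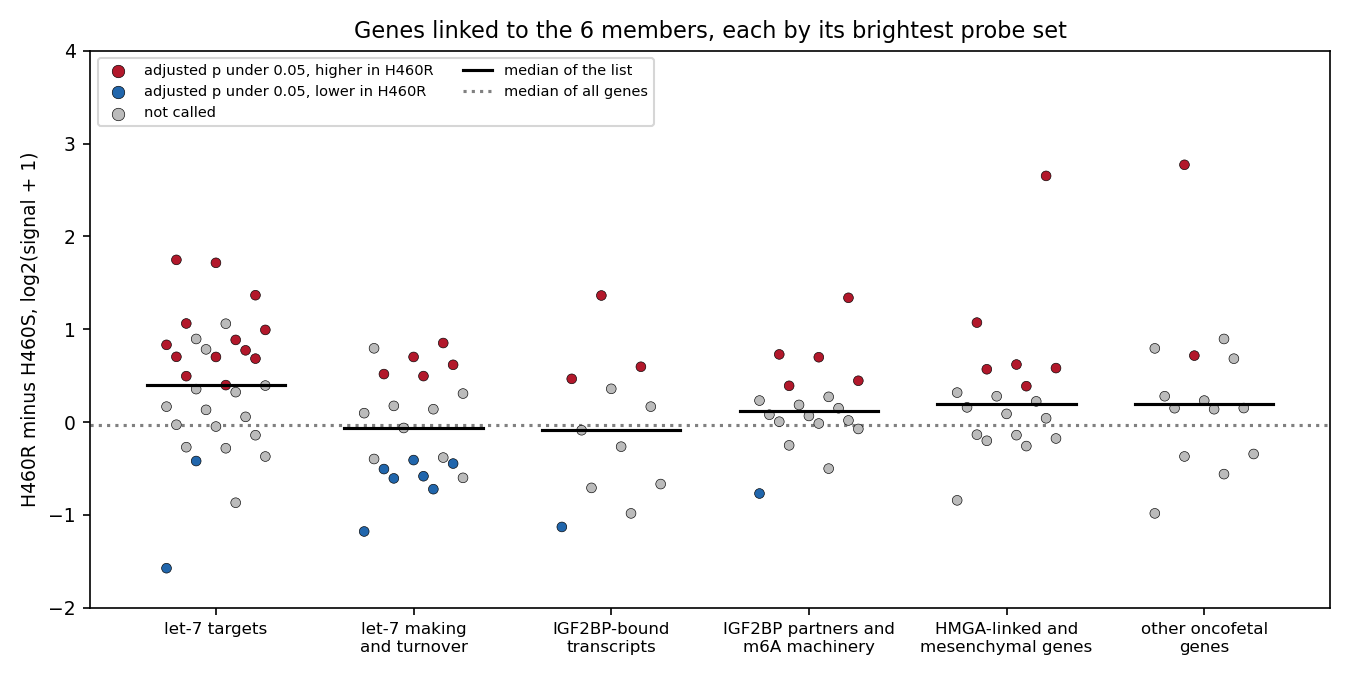
Change (H460R minus H460S, log2(signal + 1)) of each gene in 6 lists linked to the members, red where it passed as higher, blue where it passed as lower and grey where it did not pass; black bars are list medians and the dotted line is the median of all genes (-0.03). The let-7 targets have the highest list median, 0.40, and TPBG (2.77) and CDH2 (2.65) are the highest single genes.

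Genes next to the members along the chromosomes were read to see whether whole stretches moved. Order was taken from RefSeq, with 5 measured genes on each side. Of the 60 neighbours of all 6 members, 7 rose and 10 fell in limma. Over all genes, 12.1% passed as higher and 12.8% as lower, 24.9% in all. Around IGF2BP1 on chromosome 17, 1 of 10 neighbours rose and 1 fell, and the adjacent genes GIP and B4GALNT2 were dim and did not pass (0.93 ± 0.48 and 0.89 ± 0.88, adjusted p = 0.242 and 0.561, limma). Around HMGA2 on chromosome 12, 2 of 10 rose and none fell at an adjusted p of 0.05 in limma, nor was any lower at an unadjusted p of 0.05. The adjacent LLPH rose by 0.61 ± 0.09 (adjusted p = 0.00318, limma), and MSRB3-AS1 on the other side did not pass (1.26 ± 0.49, adjusted p = 0.125, limma). Around IGF2BP2 on chromosome 3, 1 of 10 rose and 2 fell, and the adjacent LIPH and IGF2BP2-AS1 did not pass (-0.14 ± 0.14 and -0.85 ± 0.39, adjusted p = 0.562 and 0.189, limma). Around IGF2BP3 on chromosome 7, 3 rose and 2 fell, and both adjacent genes, MALSU1 and TRA2A, rose (0.44 ± 0.09 and 0.76 ± 0.11, adjusted p = 0.0132 and 0.00345, limma), opposite to IGF2BP3 itself. None of the 10 neighbours of HMGA1 on chromosome 6 passed in limma, nor did any reach an unadjusted p of 0.05, the adjacent ones being GRM4 at -0.14 ± 0.25 and SMIM29 at 0.13 ± 0.19.

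Among the neighbours of LIN28B, also on chromosome 6, falls were the only changes that passed. Of 10, 5 fell and none rose in limma, nor was any higher at an unadjusted p of 0.05, and the median change was -0.43. Of all genes, 12.8% fell. LIN28B-AS1, the adjacent antisense gene, was dim, at a mean log2 level of 4.90, and changed by -0.93 ± 0.26 (adjusted p = 0.0423, limma). POPDC1, the adjacent membrane protein gene on the other side, changed by -1.22 ± 0.12 (adjusted p = 0.000669, limma). LIN28B itself is too dim to be placed among them. Without H460R array 1, 11 of the 60 neighbours of all 6 members passed in place of 17.

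**Figure D4:**
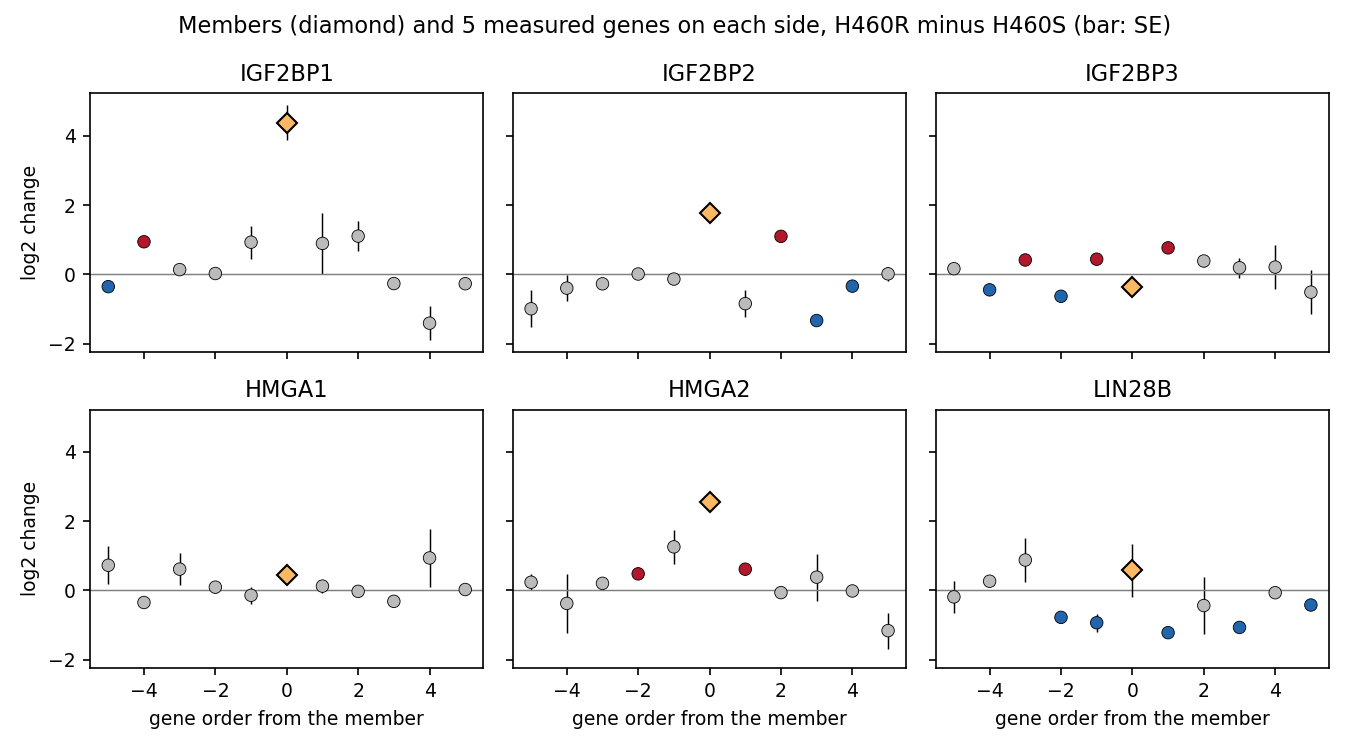
Change (H460R minus H460S, log2(signal + 1), bar: limma SE) of each member (diamond) and of the 5 measured genes on each side, by gene order; red passed as higher, blue as lower, grey did not pass. IGF2BP1 (4.38), HMGA2 (2.55) and IGF2BP2 (1.77) stand above their neighbours, and 5 of 10 neighbours of LIN28B fell.

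The genes whose profile over the 8 arrays lay closest to a member were found by Euclidean distance of mean-centred log2 levels, among 11641 genes at or above the median level. For IGF2BP1 they were ANXA10, IL11 and UNC5D, at distances of 1.59, 1.77 and 1.80, and IL11, a cytokine gene, lay at a mean log2 level of 7.51 ± 0.14 in H460R and 3.78 ± 0.80 in H460S. For HMGA2 they were ANKRD22, ANTXR2 and EDNRB, at 0.52, 0.55 and 0.57. For LIN28B they were BTF3P12, UBL3 and TCIM, at 1.497, 1.58 and 1.65, and UBL3 lay at 8.05 ± 0.71 in H460R and 7.33 ± 0.39 in H460S. With 2 groups, genes with an equal difference between them lie close by this measure. LIN28B was dim and its groups overlapped, with H460R array 4 at 0.94 against 3.73 to 3.82 in the other H460R arrays. How far its closest profiles follow this scatter was not tested.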

How the data were processed

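RNA of 4 H460R and 4 H460S samples was hybridised to 8 arrays with 54675 probe sets, 62 of them control probe sets that were left out of the tests. The deposited values are linear intensity signals. RMA is named per the submitters' processing notes, but the values are not on a log2 scale and the mean after trimming 2% at each end is 200.0 on every array, so the step that made them is not settled. A constant of 1 was added, log2 taken and no further normalization done. Gene names came from the platform annotation (41091 probe sets with 1 symbol, 1801 with several, which were not used), updated through RefSeq (41037 matched). The test was limma 3.58.1 (R 4.3.3), fitted over all 54613 probe sets, with Benjamini-Hochberg adjustment and a threshold of 0.05. In all 10637 probe sets passed (19.5%). A gene was represented by its brightest probe set. Text names all member probe sets, up to 4 genes of each list with the largest changes that passed, genes adjacent to members and the 3 closest profiles. The members and lists were chosen with earlier results of these data known. Alternatives are given in the closing section. The number of arrays limits the precision.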

Additional observations from a re-analysis of the deposited data

Results flagged for a closer look

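Among 42 sets of 4 arrays (21 probe sets in each group), 5 held an array whose gap to the nearest other array was above Dixon's 95% limit as a part of the whole range, where chance gives about 1 in 20. LIN28B 229349_at in H460R array 4 had a log2 level of 0.94, against 3.73 to 3.82 in the other 3 arrays. HMGA2 1567223_at was low on the same H460R array, at 0.99 against 3.44 to 3.72. HMGA2 208025_s_at in H460S array 1 was high, at 5.04 against 4.26 to 4.35. HMGA1 206074_s_at in H460S array 2 was low, at 9.86 against 10.22 to 10.26. IGF2BP3 1569033_at in H460S array 1 was low, at 4.39 against 5.43 to 5.60.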

How the results depend on the processing

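IGF2BP2 passed under all 16 alternatives, with changes of 1.51 to 1.84 and adjusted p up to 0.0353 (limma), and LIN28B under none of 15, with changes of 0.14 to 1.29. LIN28B gave no value with dim probe sets left out. Same-numbered arrays did not deviate together (correlations of -0.09 to 0.10) and so share only a number. With the replicate number as a block the number of probe sets changed was 5062 (2190 higher and 2872 lower in H460R), with 20 of 108 list genes and 8 of 60 neighbours in place of 44 and 17, while the changes of IGF2BP3 (-0.37) and HMGA1 (0.44) no longer passed. IGF2BP3 also did not pass after median centring (-0.30) or with the mean of its probe sets (-0.26), and HMGA1 not after quantile normalization (0.40). IGF2BP1 differed by 3.04 and HMGA2 by 1.96 with a pseudocount of 16, and by 3.19 and 0.87 with the mean of their probe sets. Leaving out each array gave -0.40 to -0.34 for IGF2BP3, 0.34 to 0.48 for HMGA1, 11 to 17 called neighbours, 35 to 43 called list genes and 7885 to 10134 called probe sets. The dim HMGA2 probe set 1568286_at (0.11) turned to -0.046 with a pseudocount of 16, and to -0.07, -0.10, -0.32 and -0.34 without H460R array 1 or 2 or H460S array 1 or 2, within a range of -0.34 to 0.64 over all omissions. The cause was not tested. Dim signals limit LIN28B, most HMGA2 probe sets and the sensitive level of IGF2BP1.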
